A study of Mus musculus with 8 samples.

Results

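The Arid3 family of DNA-binding proteins was measured on 8 arrays of mouse pre-B leukaemia lines transfected with a microRNA duplex. Its 3 genes are Arid3a, also called Bright, Arid3b and Arid3c. Members were all non-control probes named for 1 of these genes, by symbol or through the RefSeq accession, whatever their signal. The family is 3 of 23119 named genes on the array and 6 of 55681 probes, of which 2 belong to Arid3a, 3 to Arid3b and 1 to Arid3c.

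The 4 groups were '18-81' cells with pre-miR-125b, '18-81' cells with miR-Neg, 70Z/3 cells with pre-miR-125b and 70Z/3 cells with miR-Neg, with 2 arrays each from 2 independent experiments. '18-81' cells are pre-B cells that Abelson murine leukaemia virus had transformed, and 70Z/3 cells are leukaemic pre-B lymphoblasts. All cells, the miR-Neg controls included, were transfected with a synthetic duplex at 10 nM with a lipid reagent, received new medium after 8 h and were lysed for RNA at 48 h. The submitters' aim was the search for miR-125b target genes. An added duplex raises the microRNA all at once, the level it reached was not measured on these arrays, and each line stands for 1 leukaemia.

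ARID proteins bind DNA through a conserved AT-rich interaction domain. Bright was found in B cells as a factor that binds matrix attachment regions beside the immunoglobulin heavy chain enhancer and raises transcription of that locus, together with the kinase Btk and the transcription factor TFII-I (gene Gtf2i). Arid3b is its close relative, binds the retinoblastoma protein and can pair with Arid3a, and Arid3c is the least studied of the family. Arid3a has been described in the literature as a direct target of miR-125b in progenitor B cells. That description may rest in part on these arrays and is given as background only.

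MicroRNAs pair with messenger RNAs mainly through bases 2 to 8, the seed. The mature miR-125b is shown first because the Arid3a oligos were searched for its complement. Its RefSeq copies lie on the plus strand at chr9:41581940-41581961 (Mir125b-1) and chr16:77646279-77646300 (Mir125b-2) in GRCm38.p6, and capitals mark the seed.
mmu-miR-125b-5p: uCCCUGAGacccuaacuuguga
Both Arid3a oligos are 60 bases long and lie in single stretches of the plus strand of chromosome 10 in the mm9 build. The proximal one covers chr10:79417377-79417436, which the files place at base 4945 of the transcript, and the distal one covers chr10:79417698-79417757 at base 5266. The distal oligo therefore starts 321 bases further toward the end of the message. A stretch of 30 bases of each is shown, with the complement of miR-125b bases 3 to 8 in capitals in the first and ATTAAA, a variant of the polyadenylation signal, in capitals in the second.
Arid3a proximal, chr10:79417387-79417416 (mm9, plus strand): gttgcacacaaaCTCAGGtaaaagtgaaaa
Arid3a distal, chr10:79417721-79417750 (mm9, plus strand): taaatcagtgatATTAAAgagttgagacac
The 6 letters CTCAGG occur in 1.92% of all 55681 oligos on the oligo strand and in 2.24% on the opposite strand. The complement of the whole seed, CTCAGGG, was in none of the 6 Arid3 oligos and in 0.44% of all oligos on their own strand (0.555% on the opposite one). It contains 2 forms of 6 letters, CTCAGG and, for bases 2 to 7, TCAGGG. The second form was also in no Arid3 oligo, and occurs in 1.47% of all oligos (1.88% on the opposite strand). ATTAAA was found in the distal oligo alone among the Arid3 oligos and in 3.95% of all oligos (2.53% on the opposite strand). AATAAA, the common polyadenylation signal, was found in the proximal oligo alone among them and in 10.1% of all oligos (3.74% on the opposite strand). The rest of the Arid3a transcript was not searched here.

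The 3 Arid3b oligos lie on the minus strand of chromosome 9 (mm9). The first spans chr9:57646030-57658028, at base 714 of the transcript, and the second spans chr9:57640491-57642800, at base 1559. Their 60 bases stretch over 11999 and 2310 genomic bases, so each crosses at least 1 exon junction, and they are called the first and the second junction probe here. The third covers chr9:57638549-57638608 without a break, at base 3501, and is called the 3′ end probe. The Arid3c oligo covers chr4:41671738-41671797 on the minus strand, at base 1192. The second junction oligo and the Arid3c oligo are the most alike of the family's oligos, and capitals mark their identical bases.
Arid3b second junction: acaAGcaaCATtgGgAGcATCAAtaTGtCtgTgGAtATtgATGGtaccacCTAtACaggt
Arid3c: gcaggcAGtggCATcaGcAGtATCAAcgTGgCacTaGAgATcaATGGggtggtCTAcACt
They share 30 of 57 aligned bases (52.6%), against 18 to 22 identical bases in every other pair of the 6 oligos. By percentage the proximal Arid3a and second junction oligos come close, with 21 of 41 aligned bases (51.2%).

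Across the arrays, 38 to 45.1% of probes were well above background, which is the scanner software's call for a spot brighter than its surroundings. The lowest share was on replicate 2 of 70Z/3 with miR-Neg. Levels are given as processed intensity, the background-corrected brightness of the spot, and as log2 of that intensity relative to the 75th percentile of the same array. That percentile was 590.5 and 461.5 in '18-81' cells with miR-125b, against 575.1 and 474.5 with miR-Neg, and 581.6 and 423.9 in 70Z/3 cells with miR-125b, against 429.8 and 279.2 with miR-Neg. No spot was saturated. Signals of different probes cannot be compared as amounts, since each oligo has its own brightness. The number of arrays, 2 in each group, limits the precision of every value.

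B-cell precursor markers were present in both lines. Of the list, 9 of 10 genes, among them Cd79a, Pax5 and Ebf1, were well above background on every array, and the recombinase gene Rag1 on none. Their summed intensity was 276000 and 197700 in '18-81' cells with miR-125b, against 268900 and 191700 with miR-Neg, and 467700 and 384900 in 70Z/3 cells with miR-125b, against 421100 and 478100 with miR-Neg.

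Arid3a was the family member whose signal differed most between the duplexes. The distal probe was lower with miR-125b in both lines, 3.19-fold in '18-81' and 2.97-fold in 70Z/3. The proximal probe was 2.58-fold lower in 70Z/3 and 1.22-fold lower in '18-81'. None of these differences passed adjustment over all 25314 tested probes.

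For the distal Arid3a probe, the intensities in '18-81' cells were 632.72 and 745.63 with miR-125b, against 2544.3 and 1891.8 with miR-Neg. They were 484.92 and 398.82 in 70Z/3 cells with miR-125b, against 1169.5 and 708.71 with miR-Neg. In both lines both miR-125b arrays lay below both miR-Neg arrays before any scaling. On the log2 scale the level averaged 0.40 ± 0.42 with miR-125b and 2.07 ± 0.11 with miR-Neg in '18-81' cells (SD, n = 2 each). It averaged −0.18 ± 0.12 with miR-125b and 1.39 ± 0.07 with miR-Neg in 70Z/3 cells (SD, n = 2 each). The order of the levels was '18-81' with miR-Neg, 70Z/3 with miR-Neg, '18-81' with miR-125b and 70Z/3 with miR-125b, with no overlap between neighbours.

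For the proximal Arid3a probe, the intensities in '18-81' cells were 5278.6 and 3783.9 with miR-125b, against 6565.5 and 4540.9 with miR-Neg. They were 1227.8 and 1152.1 in 70Z/3 cells with miR-125b, against 2780.5 and 1654.8 with miR-Neg. The 2 duplexes were separate in 70Z/3 cells, while the unscaled intensities overlapped in '18-81' cells. After scaling, the level averaged 3.10 ± 0.09 with miR-125b and 3.39 ± 0.18 with miR-Neg in '18-81' cells (SD, n = 2 each), with no overlap. It averaged 1.26 ± 0.26 with miR-125b and 2.63 ± 0.09 with miR-Neg in 70Z/3 cells (SD, n = 2 each). The order was '18-81' with miR-Neg, '18-81' with miR-125b, 70Z/3 with miR-Neg and 70Z/3 with miR-125b, and the first neighbours in it did not differ beyond the interval given below.

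**Figure D1:**
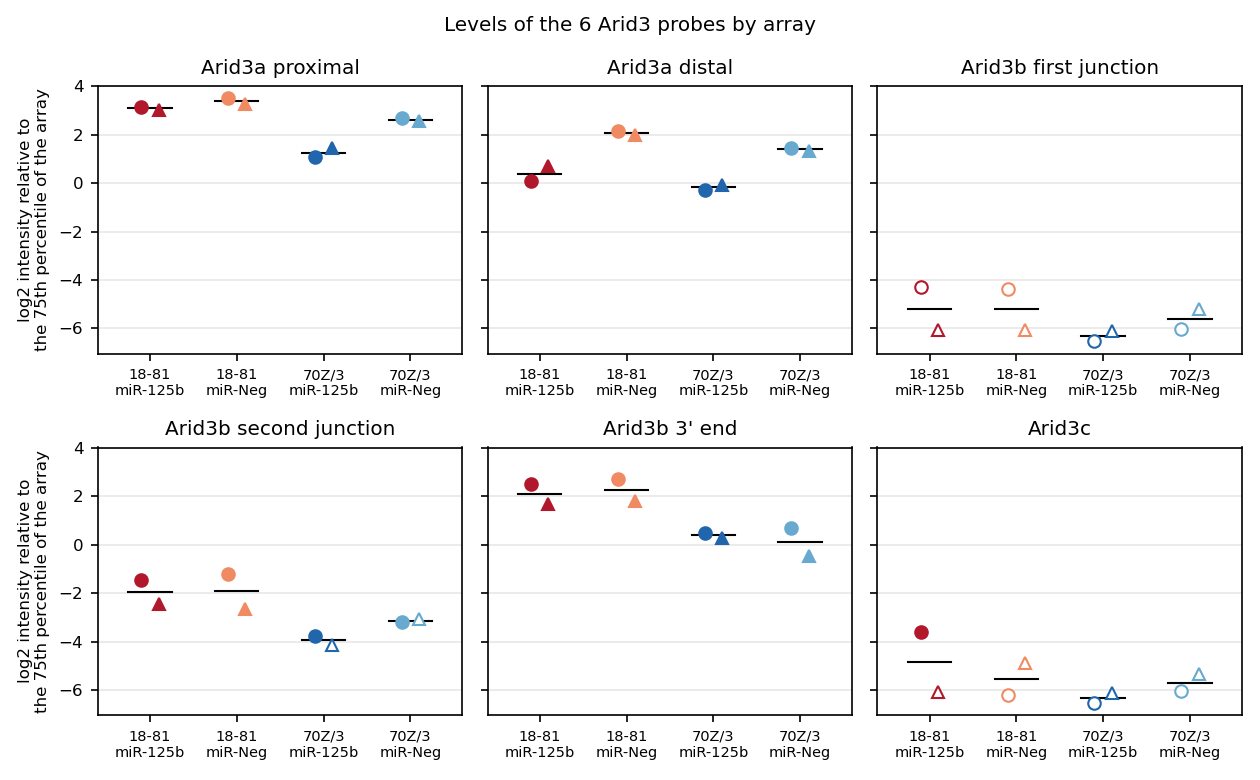
Level of each Arid3 probe on each array, as log2 intensity relative to the array's 75th percentile (y axis), in the 4 groups (x axis). Circles are replicate 1, triangles replicate 2, bars the mean, and open symbols are spots not well above background. The distal Arid3a probe averaged 0.40 with miR-125b and 2.07 with miR-Neg in '18-81' cells, and −0.18 with miR-125b and 1.39 with miR-Neg in 70Z/3 cells.

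With limma on all 8 arrays and Benjamini-Hochberg adjustment over all tested probes, the miR-125b effect at the distal probe was −1.67 ± 0.30 on the log2 scale in '18-81' cells (SE; 95% interval −2.37 to −0.98; unadjusted p = 0.000566, adjusted p = 0.551). It was −2.05 in the first experiment and −1.30 in the second. In 70Z/3 cells the effect at this probe was −1.57 ± 0.30 (SE; 95% interval −2.27 to −0.87; limma, unadjusted p = 0.000857, adjusted p = 0.692), with −1.71 and −1.43 in the experiments. Averaged over both lines it was −1.62 ± 0.21 (SE; limma, unadjusted p = 6.7e-05, adjusted p = 0.537), and it was below 0 in both experiments of both lines. Only 73 of the 25314 tested probes (0.288%) had a difference as low in '18-81' cells, and 133 (0.525%) had one in 70Z/3 cells.

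At the proximal probe the effect in '18-81' cells was −0.29 ± 0.28 (SE; 95% interval −0.94 to 0.36; limma, adjusted p = 1), with −0.35 in the first experiment and −0.22 in the second. That interval includes 0. In 70Z/3 cells the effect was −1.37 ± 0.28 (SE; 95% interval −2.02 to −0.72; limma, unadjusted p = 0.0013, adjusted p = 0.692), with −1.62 and −1.12 in the experiments. The average over both lines was −0.83 ± 0.20 (SE; limma, unadjusted p = 0.00327, adjusted p = 1). The median of all tested probes was itself −0.12 in 70Z/3 cells and 0.03 in '18-81' cells. Relative to it, the effects in 70Z/3 cells were −1.25 at the proximal and −1.45 at the distal probe.

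Counted over the family, 0 of the 4 tested probes passed an adjusted p of 0.05 with limma in either line, in the average or in the difference between the lines. The share over all tested probes in these comparisons was 0%. At an unadjusted p of 0.05, the distal Arid3a probe alone passed in '18-81' cells, where 1.24% of all tested probes did (0.64% in the lower direction). Both Arid3a probes and neither Arid3b probe passed in 70Z/3 cells, where 6.03% of all tested probes did (3.03% lower). In the average over both lines the same Arid3a pair passed, against 2.69% of all tested probes (1.21% lower). These counts are from the fit without the experiment as a block. With a block for each experiment within each line, the second junction probe of Arid3b passed too, in 70Z/3 cells (limma, unadjusted p = 0.0153) and in the average (0.0463). The share of all tested probes past that threshold was then 2.92% in '18-81' cells, 19.4% in 70Z/3 cells and 7.39% in the average. With 1 block for each experiment it was 2.67%, 19.2% and 6.69%, and the Arid3 probes that passed were those of the fit without a block. Without replicate 2 of 70Z/3 with miR-Neg, 2 of all probes passed the adjusted threshold in 70Z/3 cells, and without replicate 2 of '18-81' with miR-125b, 13 did in '18-81' cells. No Arid3 probe was among them.

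Read by arrays, miR-125b lay below miR-Neg without overlap at 2 of the 4 tested probes in '18-81' cells and at 3 in 70Z/3 cells. Over all tested probes this held for 5.02% in '18-81' cells and 22.7% in 70Z/3 cells. Both Arid3a probes did so in both lines, as did 1.13% of all tested probes. With a limit of −1 in both lines, chosen after the values were seen, the distal Arid3a probe was 1 of 18 probes (0.0711%).

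**Figure D2:**
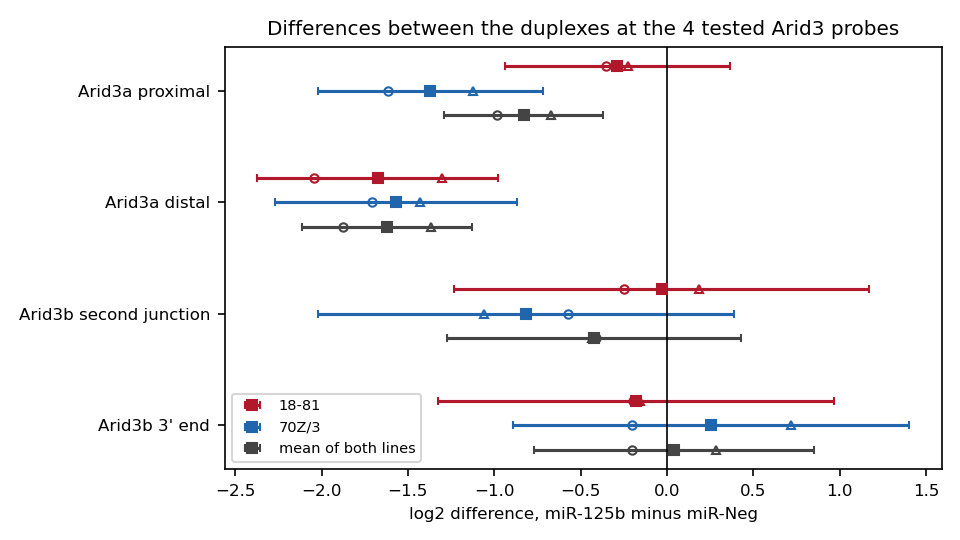
Difference between the duplexes on the log2 scale (x axis, miR-125b minus miR-Neg) at the 4 tested Arid3 probes. Squares are limma estimates with 95% intervals, and open circles and triangles are the first and second experiment. The distal Arid3a probe stood at −1.67 in '18-81' and −1.57 in 70Z/3 cells, while the Arid3b intervals all include 0.

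**Figure D3:**
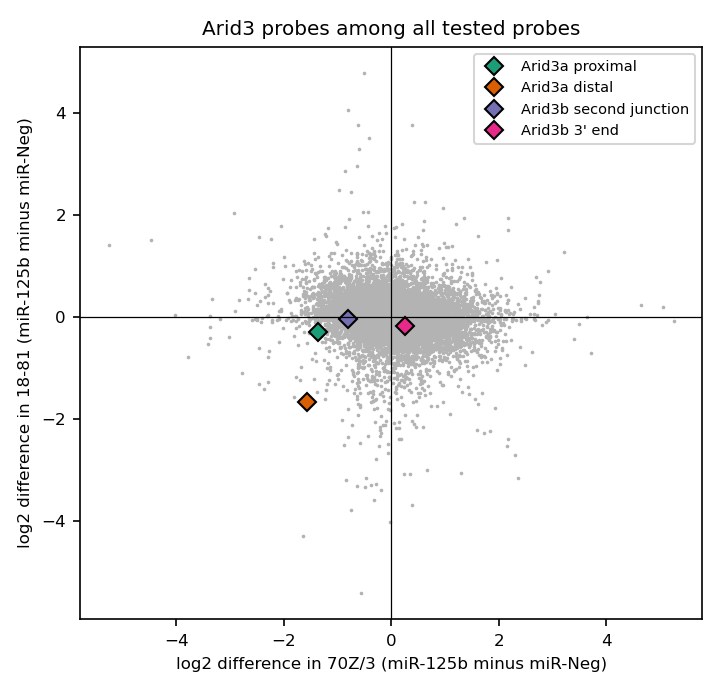
Differences between the duplexes (log2, miR-125b minus miR-Neg) of all 25314 tested probes, with 70Z/3 cells on the x axis and '18-81' cells on the y axis. Each grey point is a probe and diamonds are the Arid3 probes. The distal Arid3a probe lies at −1.57 and −1.67, and the proximal one at −1.37 in 70Z/3 and −0.29 in '18-81' cells.

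The 2 Arid3a probes thus gave alike effects in 70Z/3 cells and unlike ones in '18-81' cells. Within each array the distal level minus the proximal level was −3.06 and −2.34 in '18-81' cells with miR-125b, against −1.37 and −1.26 with miR-Neg. In 70Z/3 cells it was −1.34 and −1.53 with miR-125b, against −1.25 and −1.22 with miR-Neg. The gap therefore moved by −1.69 and −1.08 in the experiments on '18-81' cells, and by −0.09 and −0.31 in those on 70Z/3 cells. This measure was chosen after the values were seen and was not tested. It shows an unequal change of the probes, and not that either one stayed the same.

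**Figure D4:**
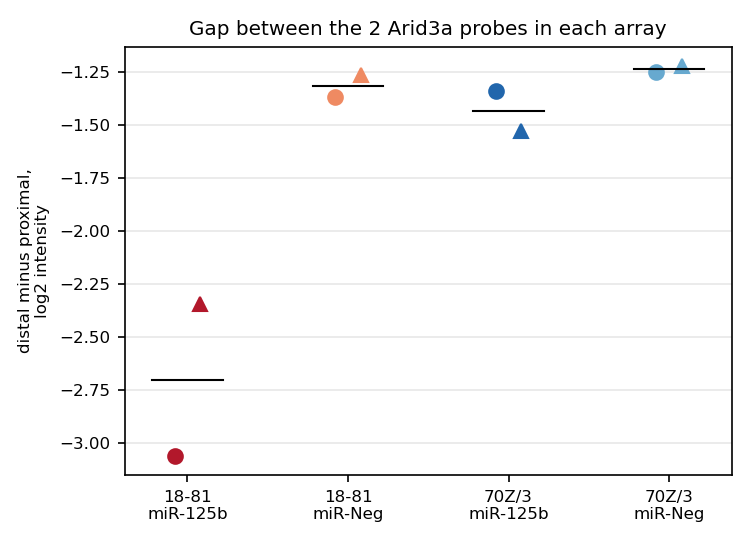
Distal minus proximal Arid3a level within each array (y axis, log2 intensity) in the 4 groups (x axis). Circles are replicate 1, triangles replicate 2 and bars the mean. Both arrays of '18-81' cells with miR-125b, at −3.06 and −2.34, lie below the other arrays, which span −1.53 to −1.22.

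The difference between the lines was tested directly for each probe, as the effect in '18-81' cells minus that in 70Z/3 cells. It was 1.08 ± 0.40 at the proximal Arid3a probe (SE; 95% interval 0.16 to 2.00; limma, unadjusted p = 0.0269, adjusted p = 0.937), with 1.26 and 0.90 in the experiments. It was −0.11 ± 0.43 at the distal probe (SE; 95% interval −1.09 to 0.88; limma, adjusted p = 0.97), and 0.19 without replicate 1 of '18-81' with miR-125b. For Arid3b it was 0.78 ± 0.74 at the second junction probe and −0.43 ± 0.70 at the 3′ end probe (SE; limma, unadjusted p = 0.319 and 0.553). The proximal Arid3a probe was thus 1 of the 4 past an unadjusted p of 0.05, as were 3.38% of all tested probes (1.87% in the higher direction). With the experiment as a block its unadjusted p was 0.0121, and 12% of all tested probes passed (limma; 0.0144 and 11.9% with the block within each line).

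Of the tested Arid3b probes, the 3′ end one overlapped between the duplexes in both lines and the second junction one in '18-81' cells only. The 3′ end probe, above background on all 8 arrays, had intensities of 3350.7 and 1460.2 in '18-81' cells with miR-125b, against 3746.4 and 1671.4 with miR-Neg. It had 819.53 and 510.63 in 70Z/3 cells with miR-125b, against 697.92 and 204.23 with miR-Neg. Replicate 2 was the dimmer array in each group. The level averaged 2.08 ± 0.60 with miR-125b and 2.26 ± 0.63 with miR-Neg in '18-81' cells (SD, n = 2 each). It averaged 0.38 ± 0.16 with miR-125b and 0.12 ± 0.81 with miR-Neg in 70Z/3 cells (SD, n = 2 each). The effect was −0.18 ± 0.50 in '18-81' cells (SE; 95% interval −1.32 to 0.97; limma, unadjusted p = 0.731) and 0.26 ± 0.50 in 70Z/3 cells (SE; 95% interval −0.89 to 1.40; limma, unadjusted p = 0.618). Both intervals include 0 and extend far to either side of it. The effect in 70Z/3 cells was −0.32 without replicate 2 of miR-Neg, and that in '18-81' cells was 0.27 without replicate 1 of miR-Neg and 0.24 without replicate 2 of miR-125b.

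The second junction probe of Arid3b was dim, and above background on 6 of 8 arrays, failing on replicate 2 of both 70Z/3 groups. Its intensities were 215.83 and 83.644 in '18-81' cells with miR-125b, against 249.72 and 75.641 with miR-Neg. They were 42.78 and 23.966 in 70Z/3 cells with miR-125b, against 47.029 and 32.874 with miR-Neg. The scaled levels overlapped in '18-81' cells and were separate in 70Z/3 cells, at −3.76 and −4.14 with miR-125b against −3.19 and −3.09 with miR-Neg. The effect was −0.03 ± 0.52 in '18-81' cells (SE; 95% interval −1.23 to 1.17) and −0.82 ± 0.52 in 70Z/3 cells (SE; 95% interval −2.02 to 0.39; limma, unadjusted p = 0.156). With a block for each experiment within each line, the effect in 70Z/3 cells had an unadjusted p of 0.0153 (limma, adjusted p = 0.239). Without replicate 1 of miR-Neg the effect in '18-81' cells was 0.69, and without replicate 2 of miR-125b it was 0.47.

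The first junction probe of Arid3b was above background on 0 of 8 arrays and was not tested. Its intensities were 29.869 and 6.9795 in '18-81' cells with miR-125b, against 28.176 and 7.0178 with miR-Neg, and 6.4022 and 6.1495 in 70Z/3 cells with miR-125b, against 6.5327 and 7.7243 with miR-Neg. The 3 probes of Arid3b thus ranged from not well above background on any array to well above it on all, and levels between them are not compared. Arid3c was above background on 1 of 8 arrays, replicate 1 of '18-81' cells with miR-125b, and was not tested either. Its intensities were 48.563 and 6.8963 in '18-81' cells with miR-125b, against 7.8054 and 15.882 with miR-Neg. They were 6.2808 and 6.0168 in 70Z/3 cells with miR-125b, against 6.4422 and 6.9169 with miR-Neg. No fold is given for either probe.

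Between the lines, 3 of the 4 tested probes passed an adjusted p of 0.05 (limma). Of these, the second junction probe of Arid3b entered the tests only through the '18-81' groups, where it was higher. Its pass is therefore no support for a line difference. Arid3a and Arid3b signals were higher in '18-81' than in 70Z/3 cells, averaged over both duplexes. Of all tested probes, 32% passed an adjusted p of 0.05 in this comparison (16.4% in the higher direction), so the family's count stands against a background of many line differences. In bulk RNA, fewer cells with a transcript and less of it per cell cannot be told apart.

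The 3′ end probe of Arid3b rose by 1.92 ± 0.35 on the log2 scale in '18-81' over 70Z/3 cells (SE; 3.78-fold; limma, adjusted p = 0.00357), with 2.01 and 1.83 in the experiments. The second junction probe rose by 1.60 ± 0.37 (SE; limma, adjusted p = 0.0112), with 2.15 and 1.06 in the experiments. It was above background on 1 of 2 arrays in each 70Z/3 group, so no fold is given. For this dim probe the difference was 0.64 (limma, adjusted p = 0.0575) after normexp background correction, and the call was lost. That correction subtracts the local background, models what remains and here adds an offset of 50 to every signal. The part of the offset in the lost call was not tested.

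The proximal Arid3a probe rose by 1.30 ± 0.20 in '18-81' over 70Z/3 cells (SE; 2.46-fold; limma, adjusted p = 0.00139). The distal probe differed by 0.62 ± 0.21 (SE; 1.54-fold; limma, adjusted p = 0.0586). With the experiment number as a block, which compares arrays of the same experiment, this difference passed (limma, adjusted p = 0.025). It also passed without replicate 1 of '18-81' with miR-125b, at 0.77 (limma, adjusted p = 0.0412). All 4 arrays of '18-81' cells lay above all 4 arrays of 70Z/3 cells at 3 of the 4 tested probes, as they did at 19.4% of all tested probes. The second junction probe of Arid3b, tested through the '18-81' groups alone, is among the 3. The exception was the distal Arid3a probe, at which '18-81' cells with miR-125b lay below 70Z/3 cells with miR-Neg.

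Split by duplex, and not tested separately, the proximal Arid3a level was 3.57-fold higher in '18-81' than in 70Z/3 cells with miR-125b and 1.69-fold higher with miR-Neg. The distal level was 1.49-fold higher with miR-125b and 1.6-fold higher with miR-Neg. For Arid3b, the 3′ end level was 3.25-fold higher with miR-125b and 4.4-fold higher with miR-Neg.

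Patterns over the 8 arrays were compared by Pearson's r as a description, and the arrays of a group and of an experiment are not independent points in it. The 2 Arid3a probes correlated at 0.73 with each other. The 3′ end probe of Arid3b correlated at 0.70 with the proximal and at 0.29 with the distal Arid3a probe. Among 12954 candidate probes with a gene symbol, those most like the proximal Arid3a probe were for Traf6, a ubiquitin ligase of receptor signalling (0.976), Tpm2, a tropomyosin (0.972), and Syvn1, a ubiquitin ligase of the endoplasmic reticulum (0.968). Most like the distal probe were Fgfr1, a fibroblast growth factor receptor (0.967), Cyb5d1 (0.866) and Atp6v1c1, a subunit of the vacuolar proton pump (0.86). Most like the 3′ end of Arid3b were Pwwp2a, a chromatin protein (0.995), Odf2, a centriole protein (0.994), and Krr1, a factor of ribosome assembly (0.992).

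Genes within 50 kb of the Arid3 probes are given by their values, since no probe of the array passed the adjusted threshold for miR-125b in the fit without a block. Beside Arid3a, the actin-binding gene Cnn2 had differences of 0.14 and 0.34 at its probes in '18-81' cells and 0.80 and 0.74 in 70Z/3 cells. Wdr18, a factor of ribosome assembly, had −0.08 and 0.28 in '18-81' cells and −0.44 and −0.15 in 70Z/3 cells. Between the lines, Cnn2 fell by 2.07 and by 1.73 at its probes in '18-81' against 70Z/3 cells (limma, adjusted p = 0.000841 and 0.00122), opposite in sign to Arid3a. Beside Arid3b, the splicing kinase Clk3 rose by 0.63 (limma, adjusted p = 0.0477). Beside Arid3c, the chemokine gene Ccl27a was above background on none of the '18-81' arrays and on all 4 of 70Z/3. It entered the tests through the 70Z/3 groups alone, so no p is given. At its 3 probes it was at least 8.96-, 10.3- and 4.86-fold lower in '18-81' cells. Such a bound sets the brighter mean against, per array, the higher of the dim signal and the lowest signal well above background.

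Other ARID domain genes include subunits and relatives of chromatin remodellers (Arid1a, Arid1b, Arid2), Arid4 and Arid5 proteins, Jarid2 of the Polycomb complex and the Kdm5 histone demethylases. Of 20 probes for 11 such genes, 15 were tested, for 9 genes. None passed an adjusted or an unadjusted p of 0.05 with miR-125b in either line or in the average (limma). Their median difference was −0.01 in '18-81' and 0.06 in 70Z/3 cells, beside 0.03 and −0.12 over all tested probes. The closest to the threshold was Arid5a, which had −0.66 in 70Z/3 cells (limma, unadjusted p = 0.0505) and 0.16 in '18-81' cells. Between the lines, 3 of the 15 probes passed the adjusted threshold, where 32% of all tested probes did (16.4% in the higher direction). All 3 were higher in '18-81': Jarid2 by 1.71, Arid2 by 0.83 at 1 of its tested probes, and Arid4b by 0.63. The list's count is thus no sign of a rise beyond that of the array.

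Partners of Bright and other factors that bind matrix attachment regions were given by 15 tested probes for 9 genes. Of these, 0 passed an adjusted p of 0.05 for miR-125b (limma), with 1 past an unadjusted p of 0.05 in each line. Of all tested probes, 1.24% passed the unadjusted threshold in '18-81' and 6.03% in 70Z/3 cells. Btk, the kinase that acts with Bright, had differences of −0.10 and −0.04 at its probes in '18-81' cells and 0.33 and −0.08 in 70Z/3 cells. Gtf2i had 0.34 and 0.06 in '18-81' cells and 0.08 and −0.26 in 70Z/3 cells. The cell cycle factor E2f1 had 0.06 in '18-81' and −0.42 in 70Z/3 cells, and the retinoblastoma gene Rb1 had 0.16 and 0.17. The list's median was −0.00109 in '18-81' and 0.33 in 70Z/3 cells. Between the lines, Rb1 rose by 1.14 and a Cux1 probe by 1.29 in '18-81', while the other Cux1 probes had −0.09 and 0.14. A Pml probe fell by 0.70.

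Of the genes reported to be controlled by Arid3a, the pluripotency genes Pou5f1 and Sox2 were above background on no array, and Ighm was not matched to a probe. Nanog was tested at 1 of its probes and had −0.02 in '18-81' cells and −0.67 in 70Z/3 cells (limma, unadjusted p = 0.952 and 0.105). Lin28a, an RNA-binding gene known as a miR-125b target, had 0.01 in '18-81' and 0.37 in 70Z/3 cells. Both Lin28b probes were above background on no array.

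**Figure D5:**
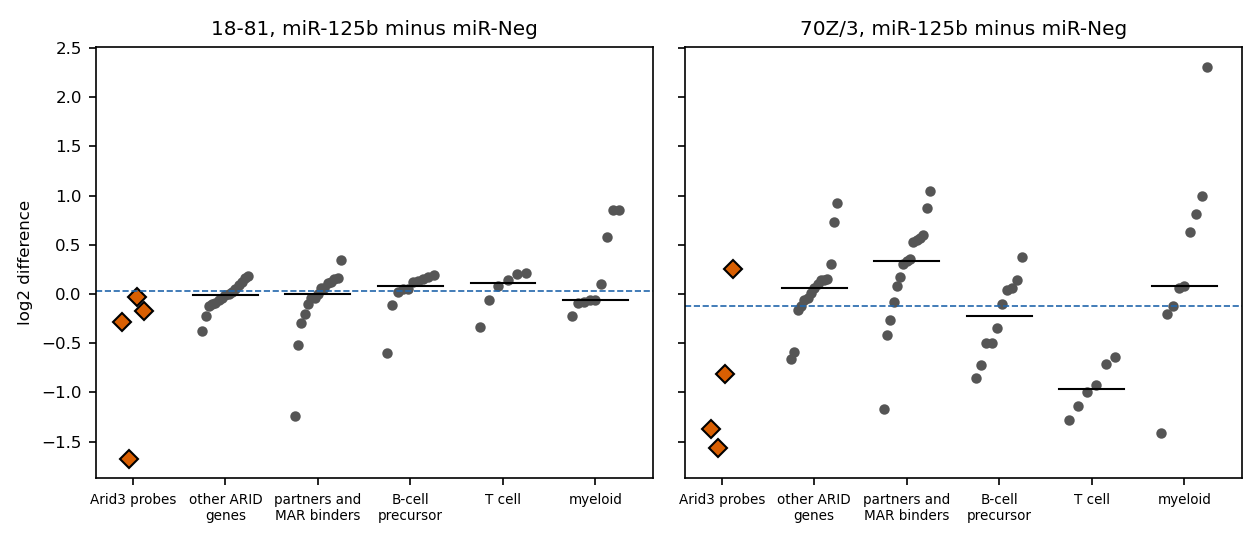
Difference between the duplexes (y axis, log2, miR-125b minus miR-Neg) at the tested probes of each gene list, in '18-81' (left) and 70Z/3 cells (right). Diamonds are the Arid3 probes, points the probes of the other lists, black bars list medians, and the dashed line the median of all tested probes, 0.03 in '18-81' and −0.12 in 70Z/3 cells. MAR stands for matrix attachment region. In '18-81' cells the distal Arid3a probe, at −1.67, lies below all listed probes, and in 70Z/3 cells T-cell markers have a median of −0.96.

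Markers of other cell types were also compared between the duplexes, and none passed an adjusted p of 0.05 in either line (limma). All 6 tested probes of the T-cell list (Cd3d, Cd3e, Cd3g, Lck, Zap70) had negative differences in 70Z/3 cells. Their median was −0.96, beside −0.12 over all tested probes. Cd3g was not above background there, and 0 of the 6 passed an unadjusted p of 0.05 (limma). In '18-81' cells their median was 0.11. Of its 6 genes, 5 were above background on every '18-81' array and 4 on every 70Z/3 array, and Cd8a was above it on none. Their summed intensity was 9471 and 11530 in '18-81' cells with miR-125b, against 9204 and 10420 with miR-Neg, and 24880 and 19170 in 70Z/3 cells with miR-125b, against 22860 and 46640 with miR-Neg. Before scaling, the 70Z/3 sum was thus higher with miR-125b in replicate 1 and lower in replicate 2.

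Myeloid markers were above background for 5 of 5 genes in 70Z/3 cells with miR-125b and for 3 of 5 in the other groups. Their summed intensity was 9789 and 5778 in '18-81' cells with miR-125b, against 10120 and 4504 with miR-Neg, and 10710 and 6392 in 70Z/3 cells with miR-125b, against 7614 and 3350 with miR-Neg. The lysozyme gene Lyz2 was at least 1.59-fold and the granule enzyme gene Mpo at least 1.43-fold higher with miR-125b in 70Z/3 cells. Both entered the tests through that group alone, where they are high, so no p is given. Neither was above background in any other group. A Csf1r probe, for a myeloid receptor, had −1.42 in 70Z/3 cells (limma, unadjusted p = 0.0261), with 0.06 and 0.81 at the gene's other probes. In '18-81' cells these probes had 0.85, 0.10 and −0.06, in the same order. The last of them was above background on only 4 of the 8 arrays. The summed stromal signal was 166.3 and 138.3 in '18-81' cells with miR-125b, against 149 and 106 with miR-Neg, and 13970 and 21620 in 70Z/3 cells with miR-125b, against 434.1 and 601.9 with miR-Neg. It came from Sparc, a matrix protein gene, which differed by 4.64 at 1 probe in 70Z/3 cells (limma, unadjusted p = 1.45e-05). At its other probe Sparc was at least 19.2-fold higher with miR-125b in 70Z/3 cells. That probe also entered the tests through this group alone, so no p is given. Col3a1 was above background on no array and Col1a1 and Col1a2 on 1 each. Of 4 erythroid genes only Klf1 was above background, and the haemoglobin gene Hba-a1 on no array. In '18-81' cells 0 tested probes of these 4 lists passed an unadjusted p of 0.05 (limma), where 1.24% of all tested probes did. The part of these genes in the Arid3a differences was not tested.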

How the data were processed

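Cy3-labelled RNA of each sample was hybridised to 1 mouse array, and 1 slide held all 8 arrays. Per the file headers, the authors read the scans with Agilent Feature Extraction 10.7.3.1 into spot intensity, with probe positions in mm9. The deposited processed intensity is background-subtracted by that software, per the file headers. The deposited series table gives linear intensity for these arrays, normalized in a way not given in the sources used here, and served as an alternative. Column medians were 14.6375 to 14.7112, genes were not centred, and r with the scanner signal was 0.997353 to 0.999973 on the log2 scale.

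Groups and replicate numbers came from the sample titles. Here, control and outlier spots (140 to 203 per array) were left out, spots of a probe were averaged, and the deposited intensity was taken as log2 minus the array's 75th percentile. Tests covered the 25314 of 55681 probes that were well above background on each array of 1 or more groups. The 4 group means were fitted jointly with limma 3.58.1 (R 4.3.3), with adjustment by Benjamini and Hochberg at 0.05 over all tested probes. The script was tested on simulated data. Names came from the RefSeq table of GRCm38.p6 for 26413 probes by accession and 3859 by symbol, and from the files for 25409. Same-numbered arrays deviated together from their group means (r of 0.495 to 0.734 in 6 pairs of groups). As 2 independent experiments are stated in the series' design, the numbers were taken as pairs, and the block was an alternative.

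Always named were the members, the 3 genes most like each bright member, neighbours within 50 kb, list genes past an unadjusted p of 0.05 for miR-125b, and 6 fixed genes. Neighbours and list genes past the threshold between the lines were named after their values were seen. Counts include a few genes whose own values are not reported here. Members and lists were chosen with earlier results of these data known. Alternatives were the background correction, normalization, series table, dim-probe filter, 1 probe per gene, blocks, arrays in the fit, intensity trend and leaving out each array.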

Additional observations from a re-analysis of the deposited data

Results flagged for a closer look

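The proximal Arid3a probe differed in its miR-125b effect between the lines by 1.08 on the log2 scale ('18-81' minus 70Z/3), by the limma test of that difference itself at an unadjusted p of 0.0269. The adjusted p was 0.937, so the difference did not pass over all 25314 tested probes, and its direction was shown in 2 of 2 experiments. Groups of 2 arrays were too small for a check of single arrays that stand apart.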

How the results depend on the processing

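Of 333 values for the 20 probe and comparison pairs under other settings, 313 kept their direction and side of the threshold, and every Arid3a effect of miR-125b within a line or in the average stayed below 0. The distal effect ranged over −1.97 to −1.38 in '18-81' and −1.66 to −1.39 in 70Z/3 cells, and the proximal over −0.42 to −0.16 and −1.55 to −1.19. Adjusted p for miR-125b at the distal probe was 0.236 to 1 in '18-81', 0.191 to 1 in 70Z/3 and 0.134 to 1 in the average. The median difference of all probes in 70Z/3 cells was −0.123 in the main setting and −0.00709 after quantile normalization.

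Between the lines, the distal Arid3a difference passed at 0.585 with normexp, 0.621 with quantile normalization, 0.603 in the series table and 0.624 with the intensity trend or with either replicate block (adjusted p = 0.025 by number, 0.0365 within each line). Its range with 1 array left out was 0.475 to 0.772, and it passed without replicate 1 of '18-81' with miR-125b (0.772). The second junction of Arid3b was lost with normexp (0.643). Either block changed no other call on an Arid3 probe at an adjusted p of 0.05. At an unadjusted p of 0.05, the block within each line added the second junction of Arid3b in 70Z/3 cells and in the average (limma, adjusted p = 0.239 and 0.668).

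Sign changes arose only on leaving out an array. The Arid3b 3′ end effect in 70Z/3 cells was −0.318 without replicate 2 of miR-Neg (range −0.318 to 0.833). In '18-81' cells it was 0.267 without replicate 1 of miR-Neg and 0.244 without replicate 2 of miR-125b (range −0.620 to 0.267). Its average was −0.0162, −0.170, −0.247 and −0.181 without 70Z/3 miR-125b replicate 1, '18-81' miR-125b replicate 1, 70Z/3 miR-Neg replicate 2 and '18-81' miR-Neg replicate 2 (range −0.247 to 0.328). Its difference between lines was 0.00907 and 0.141 without '18-81' miR-Neg replicate 1 and 70Z/3 miR-Neg replicate 2 (range −1.01 to 0.141). The second junction effect in '18-81' cells was 0.691 and 0.474 without miR-Neg replicate 1 and miR-125b replicate 2 (range −0.754 to 0.691). The distal Arid3a difference between lines was 0.191 without '18-81' miR-125b replicate 1 (range −0.402 to 0.191).

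The count of all probes past adjusted p in 70Z/3 cells was 0 in the main setting, 1 with normexp, 1 with the replicate block within each line and 0 to 2 with 1 array left out. In '18-81' cells it was 0, 2 after quantile normalization, 2 in the series table and 0 to 13 on leaving out arrays. In the average and in the difference between lines it was 0, and 0 to 6 on leaving out arrays (6 without '18-81' miR-125b replicate 2 in both). Between the lines it was 8092, and 4609 among probes above background on all 8 arrays, a smaller set by construction. The cause of the other changes was not tested. Signal near background limits both junction probes of Arid3b and Arid3c.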
